A study of Homo sapiens with 9 samples.

Results

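The keratin genes were examined in HT-29, a cell line derived from a human colon cancer, after exposure to 5-aza-deoxycytidine (5-Aza), a cytidine analogue that is built into DNA and traps DNA methyltransferases. The members are all gene symbols that consist of KRT, a number and at most 1 letter from A to C, which gave 55 genes of the 23284 symbols measured. RNA-Seq was performed on 9 separate cultures of the same line, 3 with vehicle alone (dimethyl sulfoxide, 0 μM 5-Aza), 3 with 5 μM 5-Aza and 3 with 10 μM 5-Aza, and the study's methods give 5 days of treatment for all of them. No other genotype or agent distinguishes the groups, and all results hold for this 1 line. Each culture gave 1 RNA extract, so the p-values below measure the spread between cultures.

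Keratins are the intermediate filament proteins of epithelial cells. A filament is built from pairs that join an acidic type I keratin with a neutral or basic type II keratin, and the pair expressed is characteristic of the epithelium. KRT8 (type II) and KRT18 (type I) form the pair of simple, single-layered epithelia such as the lining of the colon, where KRT19 and KRT20 are additional type I keratins and KRT20 marks differentiated intestinal cells. KRT7 is a type II simple keratin of ducts and glands and is usually low or lacking in colon epithelium. KRT5 and KRT14 belong to the basal layer of stratified epithelia, KRT1, KRT10, KRT4 and KRT13 to layers above it, KRT6A, KRT16 and KRT17 to wounded or activated epithelium, and KRT81, KRT83 and KRT86 to the hair shaft. The 55 genes were therefore divided into 5 simple epithelial keratins (KRT7, KRT8, KRT18, KRT19 and KRT20) and 50 keratins of other epithelia and hair.

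In the GRCh37 annotation 26 type II genes and the type I gene KRT18 lie in 1 cluster on chromosome 12, and the other 28 type I genes lie on chromosome 17. Of the 55 genes, 32 had exactly 1 promoter entry in the RefSeq table used here (GRCh38.p14), and only these were used. The set of all promoters was not limited in this way. In the 250 bases before the start site these 32 promoters held a median of 2 CpG dinucleotides (the letters CG, the same on both strands and the site that DNA methyltransferases modify), against 11 over all 35116 promoters of the same length. None of the 32 held 10 or more, whereas 52.2% of all promoters did, and 28 of the 32 held 5 or fewer, against 38.1% of all. Most of the keratins called below are not among the 32, including KRT7, KRT18, KRT19, KRT23, KRT81 and KRT86. Of the 13 called higher at 5 μM only 4 are among the 32 (KRT3, KRT5, KRT12 and KRT75), with a median of 4 CpG. The 4 entries of keratins at 0 in all samples have a median of 2. The following 250 bases come from 3 type I genes that lie next to each other on chromosome 17 and whose RNA results differ, as described below. They are KRT10 (chr17:40822615-40822864), KRT12 (chr17:40867224-40867473) and KRT20 (chr17:40885243-40885492), all on the minus strand, and are written 5′ to 3′ in the direction of the gene with CpG in capitals.
KRT10: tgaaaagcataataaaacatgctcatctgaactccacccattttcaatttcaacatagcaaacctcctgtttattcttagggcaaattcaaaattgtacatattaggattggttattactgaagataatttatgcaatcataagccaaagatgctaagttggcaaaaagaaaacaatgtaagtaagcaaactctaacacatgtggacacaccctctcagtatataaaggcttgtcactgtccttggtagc
KRT12: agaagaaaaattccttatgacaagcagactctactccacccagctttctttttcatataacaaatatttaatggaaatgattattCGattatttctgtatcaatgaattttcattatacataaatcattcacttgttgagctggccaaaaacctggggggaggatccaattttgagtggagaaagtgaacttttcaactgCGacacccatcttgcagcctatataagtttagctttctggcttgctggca
KRT20: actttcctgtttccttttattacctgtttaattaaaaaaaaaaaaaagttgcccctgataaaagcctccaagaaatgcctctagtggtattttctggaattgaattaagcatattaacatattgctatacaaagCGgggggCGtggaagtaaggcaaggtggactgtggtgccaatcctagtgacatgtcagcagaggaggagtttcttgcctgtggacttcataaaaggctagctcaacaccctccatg
The KRT10 window holds 0 CpG, which leaves it among the 6.1% of promoters with none, and the KRT12 and KRT20 windows hold 2 each. DNA methylation was not measured in these samples.

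Levels are FPKM (fragments scaled to transcript length and library size) on the deposited scale. The FPKM of a library sum to between 3.69e+09 and 5.91e+09, so they are used only as relative values that are already per length. Many low values move in whole multiples of a smallest unit, called a step here, and the libraries hold an estimated 11958736 to 32687183 steps. Steps are approximate, and some values are not whole, such as 0.5, 0.75 and 0.5 for KRT14 in the control replicates. Of 229 genes used to set the unit, 103 had a smallest value within 15% of 1 step and 64 within 15% of 2 steps. A median-of-ratios comparison gave relative scales of 0.83 and 0.85 for 10 μM replicates 1 and 3 and 0.99 to 1.09 for the other 7 libraries. Differences are of log2(FPKM + 1) with the standard error (SE) from limma, and a gene was called when its Benjamini-Hochberg adjusted p over all genes tested was at most 0.05 and its difference exceeded 2-fold. The listed colon epithelium markers were present, and none of the 9 was at 0 in a whole group. Without KRT8, KRT18 and KRT20, which are among the 9, the other 6 (EPCAM, CDH1, VIL1, CDX2, CDH17 and LGALS4) summed to 12654800 to 15195200 FPKM in the control, 9095570 to 10383100 at 5 μM and 6735540 to 10571200 at 10 μM. LGALS4 was the largest part, with a mean of 7588730 FPKM in the control and 4131460 at 5 μM. In the order named, the 5 μM log2 differences from control were -0.23, -0.06, -0.47, -0.73, 0.62 and -0.87. None of these 6 genes was called at 5 μM.

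In untreated HT-29 cells nearly all keratin RNA came from the simple epithelial keratins. KRT8 and KRT18 ranked between 5 and 36 among the 23284 symbols in the 9 libraries, and the 5 simple keratins made up 98.5% ± 0.0534 (SD, n = 3) of the summed keratin FPKM of the control. All keratins together held 1.58% ± 0.0970 of the FPKM of a control library, 0.701% ± 0.0275 at 5 μM and 0.751% ± 0.104 at 10 μM (SD, n = 3). Their summed level was 90691600, 95621100 and 78673400 FPKM in the control replicates, 30113900, 33492000 and 32555200 at 5 μM and 23480600, 42515500 and 32724700 at 10 μM. Every treated culture was below every control culture, and the 10 μM cultures spread around the 5 μM ones.

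KRT8, the type II member of the simple pair, was at 40930400, 42003400 and 35211200 FPKM in the control replicates. It was at 11913700, 13094800 and 12671000 FPKM at 5 μM and at 9932250, 18259600 and 13732500 FPKM at 10 μM. The treated cultures thus lay below the control without overlap at both concentrations. At 5 μM the mean ratio to control was 0.319 (log2 difference -1.65, SE 0.19, adjusted p = 0.00113), and KRT8 was called. At 10 μM the log2 difference was -1.53 with an SE of 0.64 and an adjusted p of 0.135, which did not pass. Among the 10 μM cultures replicate 2 was highest, and without it the log2 difference was -1.75 (adjusted p = 0.0483). With all cultures kept, KRT8 was also called lower at 10 μM under 3 of the alternatives described below. These were at least 10 steps (adjusted p = 0.032), all 9 samples in one fit (0.031) and median-of-ratios scaling (log2 difference -1.29, adjusted p = 0.0494). The source of the SE of 0.64 was not tested.

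KRT18, its type I partner, followed the same course. The control replicates were at 32778900, 36486000 and 29680100 FPKM, the 5 μM replicates at 9894010, 11342700 and 10506000 FPKM, and the 10 μM replicates at 8642360, 15607000 and 12727300 FPKM. It fell at 5 μM to 0.321 of control (log2 difference -1.64, SE 0.18, adjusted p = 0.000999), and at 10 μM its log2 difference of -1.46 (SE 0.59, adjusted p = 0.124) did not pass. Without 10 μM replicate 2 that difference was -1.65 with an adjusted p of 0.0462. With all cultures kept, KRT18 was also called lower at 10 μM under the same 3 alternatives as KRT8. The adjusted p-values were 0.0321 with at least 10 steps, 0.0279 with all 9 samples in one fit and 0.0484 with median-of-ratios scaling. The ratio of KRT18 to KRT8 in FPKM was 0.837 ± 0.0342 in the control, 0.842 ± 0.0210 at 5 μM and 0.884 ± 0.0380 at 10 μM (SD, n = 3). The ranges of these ratios overlapped between all 3 groups. Both genes have many processed pseudogene copies, and reads shared with those copies could not be separated here.

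KRT19, the smallest type I keratin, showed the largest decrease among the simple keratins at 5 μM. It was at 9139730, 9265590 and 7409540 FPKM in the control, at 2475560, 2469290 and 2491360 FPKM at 5 μM and at 2069300, 3771350 and 3245970 FPKM at 10 μM. The 5 μM ratio to control was 0.288 (log2 difference -1.79, SE 0.12, adjusted p = 0.000271) and the 10 μM ratio was 0.352 (log2 difference -1.54, SE 0.32, adjusted p = 0.0251). KRT19 was therefore called lower at both concentrations, although the 10 μM call was lost when 10 μM replicate 3 or any 1 control replicate was left out.

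KRT20, the keratin of differentiated intestinal cells, was at 0.724 of the control mean at 5 μM and at 0.419 at 10 μM. It was at 6366210, 6378920 and 5179560 FPKM in the control, at 3854700, 4536870 and 4593120 FPKM at 5 μM and at 2017940, 3544720 and 1945210 FPKM at 10 μM. None of the 3 groups overlapped another. The 5 μM difference passed the adjusted p but not the 2-fold limit (log2 difference -0.46, SE 0.14, adjusted p = 0.0371), and the 10 μM difference passed both (log2 difference -1.31, SE 0.31, adjusted p = 0.0344). That call was lost without any 1 control replicate and without 10 μM replicate 1 or 3. Between 10 μM and 5 μM the log2 difference was -0.84 (SE 0.29, adjusted p = 0.144). In the control and at 10 μM KRT19 was above KRT20 in every culture, whereas at 5 μM KRT20 was above KRT19 in all 3. KRT20 accordingly made up 6.76% ± 0.231 of keratin FPKM in the control, 13.5% ± 0.656 at 5 μM and 7.63% ± 1.46 at 10 μM (SD, n = 3).

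KRT7 was the exception among the 5 simple keratins, since it rose at 5 μM. It was at 51212, 56302 and 37974 FPKM in the control, at 236739, 230537 and 295158 FPKM at 5 μM and at 48354, 67062 and 68017 FPKM at 10 μM. The 5 μM cultures stood above all others, and the 10 μM cultures overlapped the control. The mean rose to 5.24 times control at 5 μM (log2 difference 2.40, SE 0.17, adjusted p = 0.000328) and was at 0.241 of the 5 μM mean at 10 μM (log2 difference -2.06, SE 0.18, adjusted p = 0.00345). Against control the 10 μM log2 difference was 0.34 (SE 0.22, adjusted p = 0.296). KRT7 stayed a minor simple keratin throughout, with 0.122% ± 0.0133 of the FPKM of KRT7 and KRT8 together in the control, 1.98% ± 0.275 at 5 μM and 0.448% ± 0.0710 at 10 μM (SD, n = 3).

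**Figure D1:**
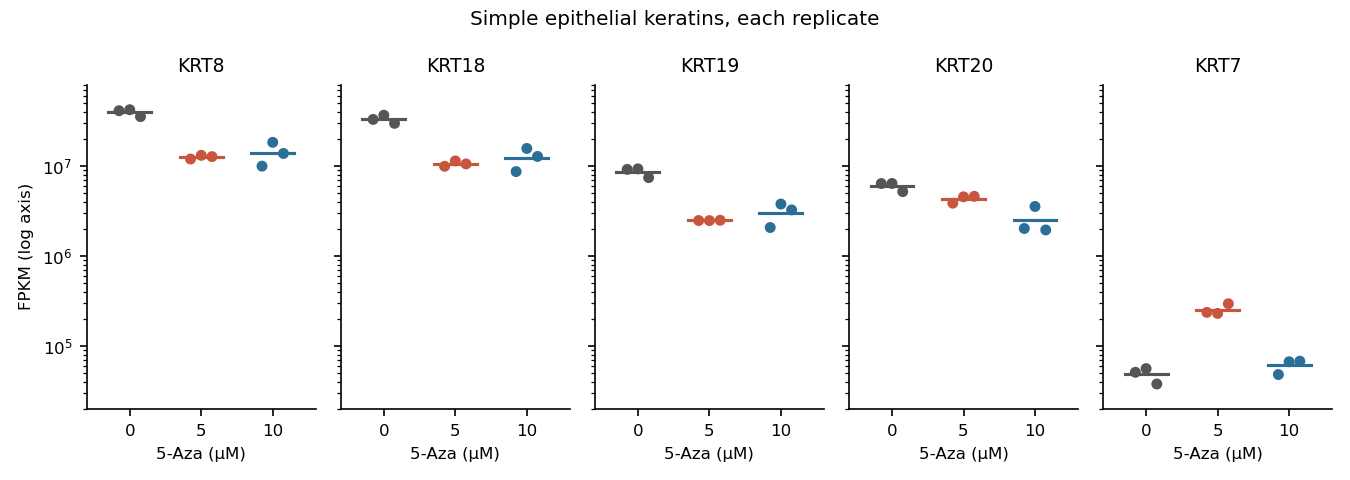
FPKM (log axis) of the 5 simple epithelial keratins against 5-Aza concentration in μM, with 1 point per replicate and a line at the mean of 3. KRT8, KRT18 and KRT19 are lower at 5 and 10 μM than in the control, KRT20 is lowest at 10 μM, and KRT7 stands higher at 5 μM only.

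The keratins of other epithelia and hair held 1.51% ± 0.0534 of keratin FPKM in the control, 5.78% ± 0.356 at 5 μM and 3.11% ± 0.155 at 10 μM (SD, n = 3), and the 3 ranges did not overlap. These shares are relative to a total that KRT8 and KRT18 dominate. In absolute FPKM the 50 genes summed to 1337010 ± 157647 in the control, 1851870 ± 132978 at 5 μM and 1013970 ± 247821 at 10 μM. KRT80, a type II keratin found in many epithelia, held 64.0% ± 1.49 of that sum in the control, 34.5% ± 1.00 at 5 μM and 38.9% ± 3.12 at 10 μM. Without KRT80 the sums were 479363 ± 41707, 1211790 ± 72001 and 619557 ± 150939 FPKM (SD, n = 3), and the 5 μM cultures were above all others. The ratio of type I to type II FPKM over all keratins was 1.19 ± 0.0299, 1.33 ± 0.0153 and 1.27 ± 0.0267 at 0, 5 and 10 μM (SD, n = 3).

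**Figure D2:**
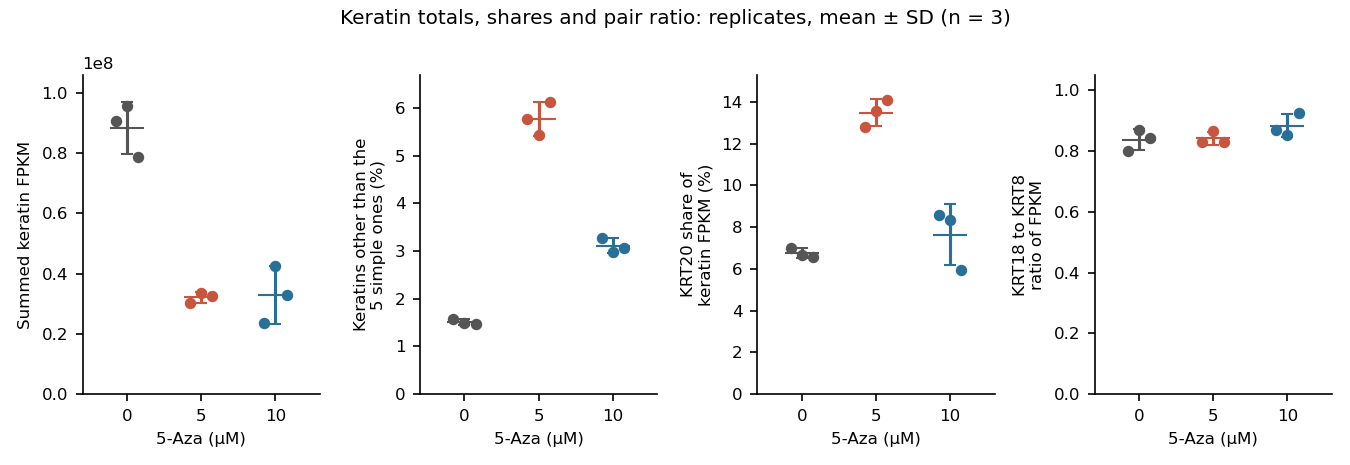
Summed keratin FPKM, the share of keratin FPKM held by the 50 keratins of other epithelia and hair, the share held by KRT20 and the KRT18 to KRT8 ratio, against 5-Aza in μM. Points are replicates and bars are mean ± SD (n = 3). The sum is lower in all treated cultures, both shares peak at 5 μM, and the pair ratio overlaps between groups.

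Over all keratins, 47 of the 55 passed the filter on low values in the comparison of 5 μM with control. Among them 13 were called higher (27.7%) and 3 lower (6.38%), while 14.1% of all 20051 genes tested were called higher and 2.17% lower. The 3 that fell were KRT8, KRT18 and KRT19. Of the 13 that rose, 1 was the simple keratin KRT7 and 12 were keratins of other epithelia and hair. A gene that is at 0 in the control passes this filter only through the treated cultures, so these shares are descriptive. Of the 55 keratins 21 reached 10 steps in 1 or more samples, and KRT4, KRT14, KRT78 and KRT79 did so only at 5 μM. Of these 21, 8 were called higher (38.1%) and 3 lower (14.3%) at 5 μM in the fit over all genes tested, with a median log2 difference of 1.20. Over all genes tested the median was 0.14. The 5 keratins called higher outside these 21 rested on at most 7 steps. In a separate fit of the 13952 genes with at least 10 steps, 15.6% were called higher and 2.68% lower, with a median of 0.014. That separate fit called 11 keratins higher and 3 lower.

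KRT81, a type II keratin of the hair shaft, had the largest rise among the keratins above 0 in all 9 samples. It was at 7826, 8977 and 16333 FPKM in the control, at 193982, 232000 and 211911 FPKM at 5 μM and at 34146, 75395 and 64474 FPKM at 10 μM. The 3 groups were separate, with 10 μM between the others. The mean was 19.3 times control at 5 μM (log2 difference 4.34, SE 0.28, adjusted p = 0.000246) and 5.25 times control at 10 μM (log2 difference 2.39, SE 0.39, adjusted p = 0.0134). KRT81 was the only keratin called higher at 10 μM than in the control. This 10 μM call was lost without control replicate 2 or without 10 μM replicate 3.

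KRT86 and KRT83 are hair shaft keratins of nearly the same sequence as KRT81 and lie beside it. KRT86 was at 14041, 14206 and 12242 FPKM in the control, at 54488, 58421 and 60202 FPKM at 5 μM and at 18555, 20064 and 17696 FPKM at 10 μM. It rose 4.28-fold at 5 μM (log2 difference 2.10, SE 0.12, adjusted p = 0.000184) and was lower at 10 μM than at 5 μM (log2 difference -1.62, SE 0.15, adjusted p = 0.00379). KRT83 had a mean of 3788 ± 966 FPKM in the control and 6559 ± 483 at 5 μM, a difference that missed the threshold (log2 difference 0.82, SE 0.28, adjusted p = 0.0607). The ratios of 19.3, 4.28 and 1.73 for KRT81, KRT86 and KRT83 were unequal, but reads shared between these copies could be assigned to any of them, and their separate values are uncertain. Another hair keratin, KRT40, was at 6643 ± 372 FPKM in the control and 11141 ± 1923 at 5 μM (log2 difference 0.73, SE 0.21, adjusted p = 0.0322), within the 2-fold limit.

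KRT23, a type I keratin outside the classical layers, was at 55194, 55354 and 64990 FPKM in the control and at 195742, 224041 and 247570 FPKM at 5 μM. The 10 μM replicates were at 64522, 119741 and 74835 FPKM, which overlapped the control at the low end. It rose 3.80-fold at 5 μM (log2 difference 1.92, SE 0.12, adjusted p = 0.000209) and was lower at 10 μM than at 5 μM (log2 difference -1.41, SE 0.24, adjusted p = 0.0182).

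Among the 13 keratins of suprabasal layers and differentiated epithelia, KRT13 of the mucosal lining was at 152304, 121716 and 101285 FPKM in the control and at 298216, 252972 and 355305 FPKM at 5 μM. The 10 μM replicates were at 166964, 234581 and 175134 FPKM, between the other groups and overlapping neither. KRT13 rose 2.42-fold at 5 μM (log2 difference 1.28, SE 0.18, adjusted p = 0.00267), and its 10 μM difference from control was 0.62 (SE 0.20, adjusted p = 0.0726). KRT12, a keratin of the corneal epithelium, was at 4715, 9935 and 7627 FPKM in the control, at 22272, 23063 and 21985 FPKM at 5 μM and at 4721, 6616 and 14357 FPKM at 10 μM. It rose 3.02-fold at 5 μM (log2 difference 1.66, SE 0.29, adjusted p = 0.00556), and the 10 μM cultures overlapped the control. KRT10, the suprabasal partner of KRT1, was at 144816, 135480 and 90983 FPKM in the control, at 96225, 108533 and 103170 FPKM at 5 μM and at 40473, 109932 and 95802 FPKM at 10 μM. It passed no test (log2 difference at 5 μM -0.24, SE 0.18, adjusted p = 0.328), and its groups overlapped.

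KRT80 was the most abundant keratin outside the simple group. It was at 912689, 937766 and 722482 FPKM in the control, at 580648, 634744 and 704841 FPKM at 5 μM and at 314868, 513253 and 355123 FPKM at 10 μM. The 3 groups did not overlap. Its log2 difference was -0.42 at 5 μM (SE 0.13, adjusted p = 0.0419), within the 2-fold limit, and -1.14 at 10 μM (SE 0.21, adjusted p = 0.0187), where it was called. Under median-of-ratios scaling the 10 μM difference was -0.90 and no longer exceeded 2-fold, and the call was also lost without control replicate 1 or 2 or without 10 μM replicate 1 or 3. The corresponding differences of KRT20 were -0.46 and -1.31.

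The keratins of activated epithelium were low but measurable through KRT17 and KRT16. KRT17 was at 70598, 84607 and 72948 FPKM in the control, at 174695, 164354 and 185506 FPKM at 5 μM and at 45850, 93180 and 80344 FPKM at 10 μM. It rose 2.30-fold at 5 μM (log2 difference 1.20, SE 0.10, adjusted p = 0.000407) and was lower again at 10 μM than at 5 μM (log2 difference -1.32, SE 0.26, adjusted p = 0.0305), where it overlapped the control. KRT16 was at 7098, 8395 and 7183 FPKM in the control, at 20094, 10218 and 16156 FPKM at 5 μM and at 3191, 4670 and 2086 FPKM at 10 μM. Its 5 μM difference stopped just short of the 2-fold limit (log2 difference 0.98, SE 0.28, adjusted p = 0.0350), and between 5 μM and 10 μM it was called lower (log2 difference -2.25, SE 0.41, adjusted p = 0.0235). KRT14, KRT16 and KRT17 have close pseudogene copies, so their values carry the same uncertainty as those of the hair keratins.

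Of the 3 basal keratins KRT15 was well above the lower limit, and KRT14 and KRT5 were near it. KRT15, a type I keratin of basal cells, was at 42180, 44075 and 47847 FPKM in the control, 66242, 66840 and 57003 FPKM at 5 μM and 66929, 70239 and 112097 FPKM at 10 μM. All treated cultures were above the control, and both log2 differences of 0.50 (SE 0.10, adjusted p = 0.0109) and 0.86 (SE 0.22, adjusted p = 0.0420) passed the adjusted p but not 2-fold. Among the 16 keratins of other epithelia and hair with 10 or more steps, KRT15 was the only one whose mean was higher at 10 μM than at 5 μM, with a log2 difference of 0.35 (adjusted p = 0.347). KRT14 was at 268, 266 and 126 FPKM in the control, at 1337, 2579 and 2499 FPKM at 5 μM and at 422, 734 and 1260 FPKM at 10 μM. It was called higher at 5 μM (log2 difference 3.30, SE 0.60, adjusted p = 0.00668), but its control values were below 1 step and its highest value was 12 steps. KRT5, the type II partner of KRT14, was listed at 0 in all control and 10 μM replicates and at 1062, 638 and 284 FPKM at 5 μM, between 2 and 7 steps.

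KRT4, KRT79 and KRT78 follow one another on chromosome 12 and were at or near 0 without treatment. KRT4, a keratin of mucosal suprabasal cells, was at 394, 0 and 554 FPKM in the control, at 7703, 6899 and 6281 FPKM at 5 μM and at 931, 1570 and 1390 FPKM at 10 μM. The 5 μM cultures were above all others, yet with 1 control value at 0 the adjusted p was 0.0662. With a pseudocount of 1000 FPKM it was 0.000196 and KRT4 was called higher. The decrease from 5 μM to 10 μM was called (log2 difference -2.45, SE 0.38, adjusted p = 0.0130). KRT78 was at 0, 0 and 913 FPKM in the control, at 3848, 4476 and 2083 FPKM at 5 μM and listed at 0 in all 10 μM replicates. It was called lower at 10 μM than at 5 μM (adjusted p = 0.00379), and its comparison of 5 μM with control gave an adjusted p of 0.0508, or 0.00479 with a pseudocount of 1000 FPKM. KRT79 was at 1369, 2880 and 640 FPKM at 5 μM and at 0 in 2 of 3 replicates of both other groups (adjusted p = 0.0547 at 5 μM against control).

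**Figure D3:**
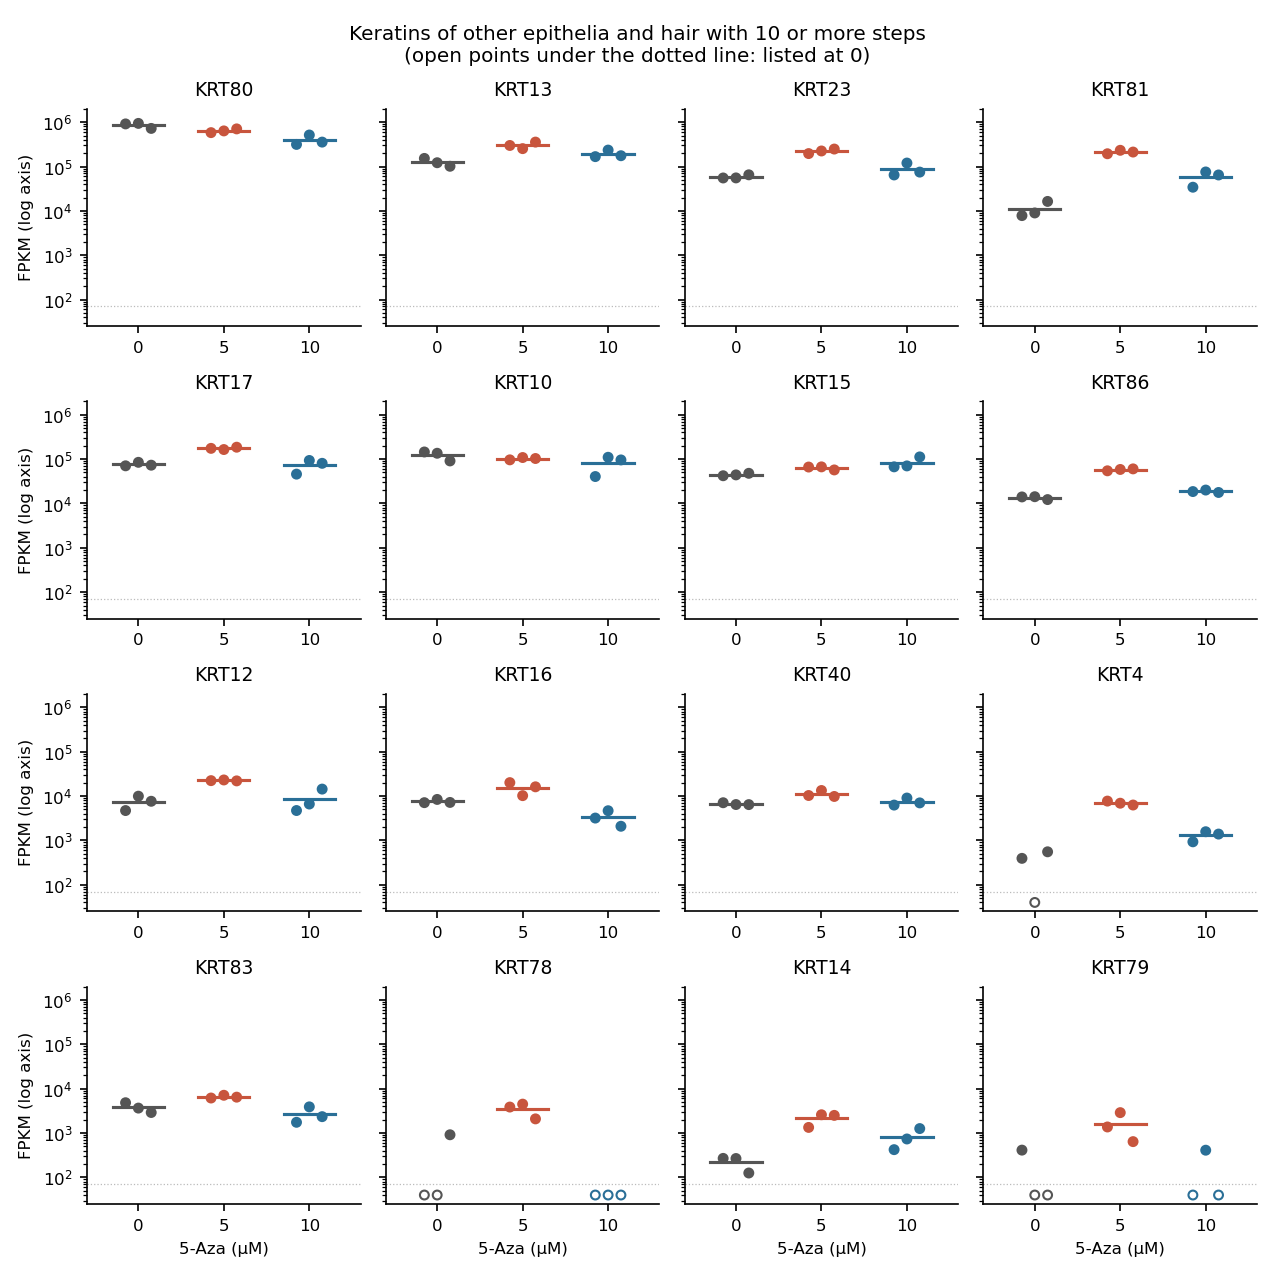
FPKM (log axis) of the 16 keratins of other epithelia and hair that reached 10 steps in 1 or more samples, against 5-Aza in μM, ordered by their 5 μM mean. Points are replicates, open points are values listed at 0, and a line marks the mean where all 3 values are above 0. Most panels peak at 5 μM, while KRT80 and KRT10 have their highest mean in the control and KRT15 at 10 μM.

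The rest of the family was barely detected. Among the 55 keratins 6 were at 0 in all 9 samples (KRT2, KRT222, KRT28, KRT33A, KRT73 and KRT77), and 28 were above 0 but under 10 steps in every sample. Of the 32 keratins at 0 in all control replicates, 24 were above 0 in 1 or more 5 μM replicates and 9 in 1 or more 10 μM replicates. Between 18 and 21 keratins were above 0 in a control library, 32 to 41 at 5 μM and 20 to 26 at 10 μM. The 5 μM libraries also held more steps (27904870 to 32687183) than most of the others, and the part of depth in this count was not tested. KRT3, KRT5, KRT6A, KRT75 and KRT85 were at 0 in all controls and above 0 in all 3 cultures at 5 μM, and these are the 5 called genes that rest on few steps. KRT3 is a corneal keratin, KRT6A an activation keratin, KRT75 a keratin of the hair follicle's companion layer and KRT85 a hair shaft keratin. Their highest values were 424, 397, 995 and 615 FPKM. No fold change is given for them, because their control values are listed at 0. All 5 calls were lost with a pseudocount of 1000 or 10000 FPKM in place of 1. By class, at 5 μM against control, 3 of 15 tested hair shaft keratins were called higher, 1 of 7 inner root sheath and companion layer keratins and 3 of 10 suprabasal and differentiation keratins. The others called higher were 2 of 5 activation keratins, 2 of 3 basal keratins and 1 of 2 type I keratins outside these classes (KRT23). None in these classes was called lower. Over all genes tested 14.1% were called higher and 2.17% lower. All classes, including the inner root sheath and companion layer class at 14.3%, are too small for more than a description.

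From 5 μM to 10 μM the keratin calls were all decreases. Of 49 keratins tested 0 were called higher and 11 lower (22.4%), while 0.129% of all 20085 genes tested were called higher and 4.82% lower. The 11 were KRT7 and 10 keratins of other epithelia and hair (KRT4, KRT5, KRT6A, KRT6B, KRT16, KRT17, KRT23, KRT78, KRT81 and KRT86), and 8 of the 11 reached 10 steps. KRT5, KRT6A and KRT6B were at 0 in all 10 μM replicates and at no more than 7 steps at 5 μM. For KRT8, KRT18 and KRT19 the log2 differences were 0.11 (SE 0.43), 0.18 (SE 0.41) and 0.24 (SE 0.27), with adjusted p-values of 0.891, 0.793 and 0.579. In the 21 keratins with 10 or more steps the median log2 difference was -1.38. It was -0.31 over all genes tested and -0.27 over all genes fitted with at least 10 steps. Both comparisons with the 5 μM cultures share those 3 samples. A total of 7 keratins (KRT5, KRT6A, KRT7, KRT17, KRT23, KRT81 and KRT86) were called higher at 5 μM than in the control and lower at 10 μM than at 5 μM. The same count was not made over all genes, so these 7 are a description and not a trait of keratins. The count of 11 depended on single cultures: it was 3 or 4 without any 1 of the 5 μM replicates and 17 without 10 μM replicate 2. The calls over all genes moved the same way, from 4.82% lower to between 0.89% and 2.46% without a 5 μM replicate and to 9.35% without 10 μM replicate 2. The calls of KRT7, KRT78 and KRT86 held without any 1 of the 6 replicates.

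Compared directly with the control, 10 μM gave few calls. Of 32 keratins tested 1 was higher (KRT81, 3.12%) and 3 were lower (KRT19, KRT20 and KRT80, 9.38%), while 4.07% of all 18928 genes tested were called higher and 3.4% lower. The median log2 difference of the 21 keratins with 10 or more steps was 0.00. It was -0.15 over all genes tested and -0.24 over all genes fitted with at least 10 steps. Scaling by median of ratios moved the median over all genes tested to 0.08. The calls over all genes moved from 771 higher and 644 lower to 1125 higher and 284 lower. The keratin calls under that scaling were 2 higher and 4 lower. For KRT17 the 10 μM difference from control was -0.11 (SE 0.27, adjusted p = 0.772) and turned to 0.13 under that scaling, so no direction is given for it. The count of 3 lower keratins ranged from 0 to 6 when single replicates were left out, with 6 without 10 μM replicate 2, and the 1 higher call was lost in 2 of these 6 fits.

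**Figure D4:**
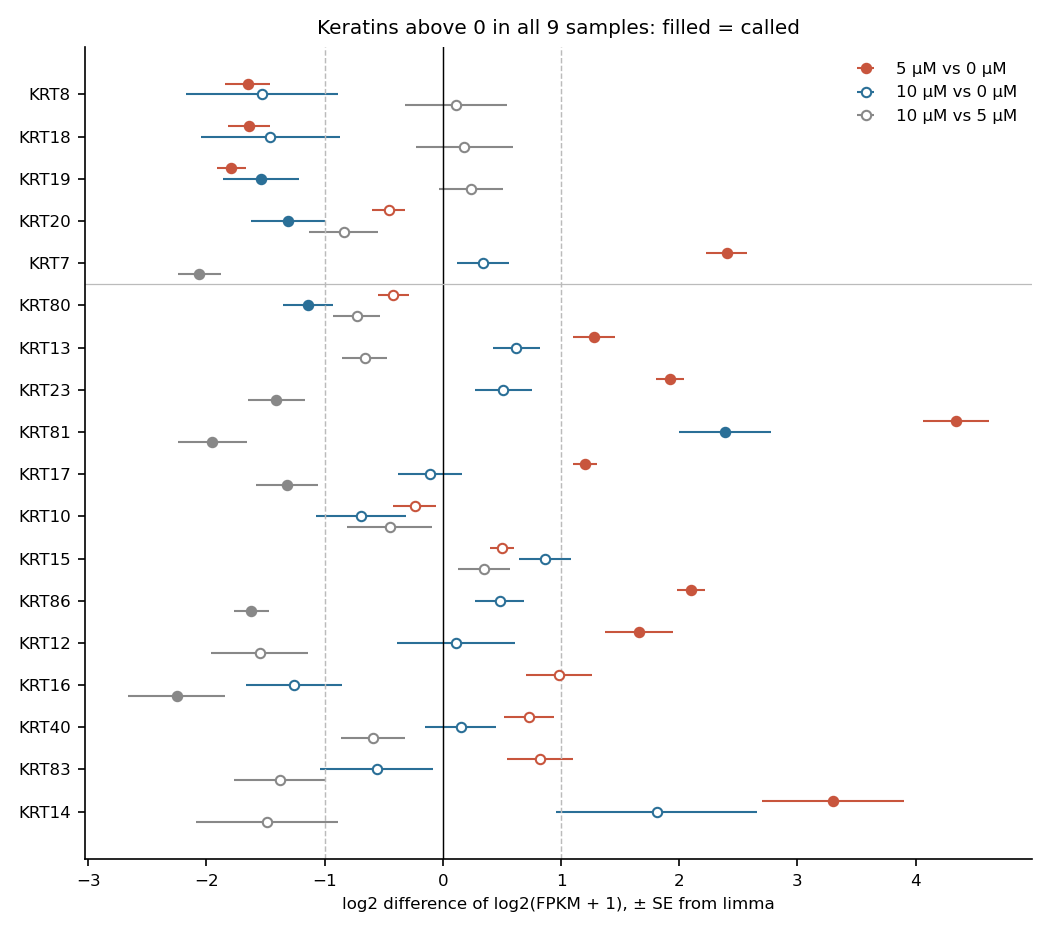
Log2 difference of log2(FPKM + 1) with SE from limma for the 18 keratins above 0 in all 9 samples, for 5 μM against control (red), 10 μM against control (blue) and 10 μM against 5 μM (grey), with the simple keratins above the horizontal line. Filled points are called and dashed lines mark 2-fold. KRT81 has the largest 5 μM difference at 4.34, and KRT8, KRT18 and KRT19 lie near -1.7.

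Neighbouring genes in the 2 clusters did not always share a direction at 5 μM, and a link of position with direction was not tested. On chromosome 12 all keratins called higher at 5 μM lie before KRT8 and KRT18, the genes called lower. On chromosome 17 KRT19, called lower, lies between KRT13 and KRT14, which were called higher. At the start of the chromosome 12 cluster KRT80 (chr12:52562780-52585798, minus strand), KRT7 (chr12:52626304-52645970, plus strand), KRT86 (chr12:52643084-52702947, plus strand), KRT81 (chr12:52679697-52685318, minus strand) and KRT83 (chr12:52708085-52715182, minus strand) follow each other in GRCh37. The 3 in the middle rose at 5 μM, while KRT80 had a log2 difference of -0.42 and KRT83 did not pass. The annotated span of KRT86 overlaps both KRT7 and KRT81, and strand was not stated for the library, so reads from these overlaps cannot be told apart. At the far end KRT8 (chr12:53290971-53343738, minus strand) and KRT18 (chr12:53342655-53346690, plus strand) both fell at 5 μM. On chromosome 17 KRT10, KRT12, KRT20 and KRT23 are consecutive, and their 5 μM log2 differences were -0.24, 1.66, -0.46 and 1.92. The first 3 of these are the genes whose upstream bases are shown above, and of the 4 only KRT12 and KRT23 were called at 5 μM. KRT15 (chr17:39669997-39678781) and KRT19 (chr17:39679869-39684560), both on the minus strand and 1.09 kb apart, gave 0.50 and -1.79.

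**Figure D5:**
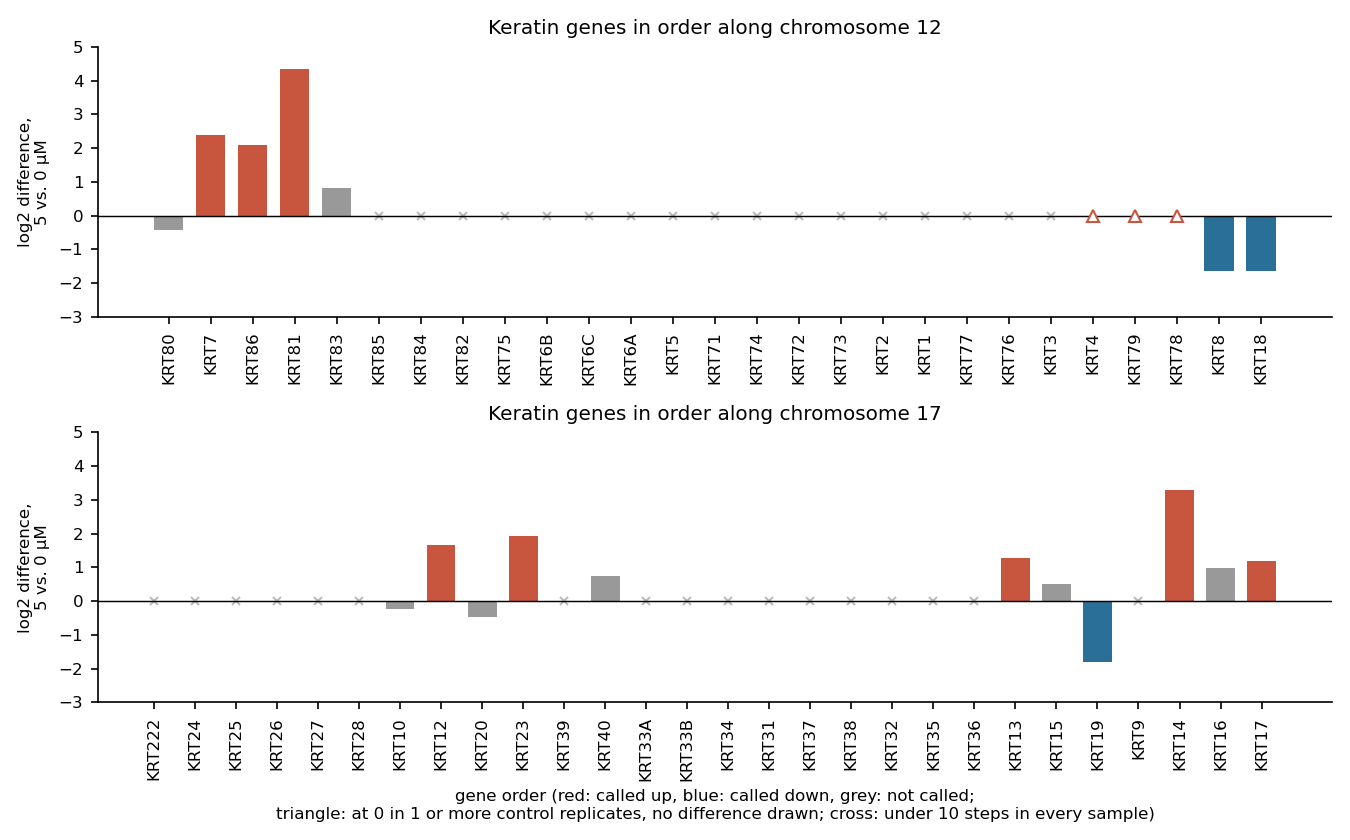
Log2 difference of 5 μM against control for keratin genes in their order along chromosomes 12 and 17 (equal spacing, not to genomic scale). Bars are genes with 10 or more steps (red called higher, blue called lower, grey not called), triangles are genes at 0 in 1 or more control replicates with no difference drawn, and crosses are genes under 10 steps. Genes of opposite direction stand side by side, such as KRT15 at 0.50 and KRT19 at -1.79.

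Genes that act with keratins were read from fixed lists. Desmosomes and plakins anchor keratin filaments at the cell edge, and of 18 such genes 2 were called higher at 5 μM (PKP1 and DSG3, 11.1% against 14.1% of all genes) and 0 lower (2.17% of all genes). The log2 difference was 2.46 for PKP1 (SE 0.34, adjusted p = 0.00218) and 3.09 for DSG3 (SE 0.68, adjusted p = 0.0140), both proteins typical of stratified epithelium. The main keratin anchor DSP was at 393288 ± 40275 FPKM in the control and 439968 ± 65657 at 5 μM (log2 difference 0.16, adjusted p = 0.386). PLEC, the linker plectin, had a log2 difference of -0.63 (SE 0.14, adjusted p = 0.0155), within 2-fold. The list's median log2 difference was -0.08, against 0.14 over all genes tested. At 10 μM against control 1 of the 18 was called (5.56%, with 3.4% of all genes lower), the plakophilin PKP2, which was lower and was named after its value was seen.

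Of 15 tested genes for other intermediate filaments 8 were called higher at 5 μM (53.3%, against 14.1% of all genes) and 0 lower (2.17% of all genes). VIM, the mesenchymal filament vimentin, was at 61.9 ± 107 FPKM in the control, 10522 ± 3784 at 5 μM and 1528 ± 559 at 10 μM (adjusted p = 0.00888 at 5 μM). DES, the muscle filament desmin, was at 282 ± 255, 24064 ± 3178 and 9237 ± 2262 FPKM (adjusted p = 0.0283). PRPH, a filament of peripheral neurons, was at 2081 ± 1490, 25474 ± 2217 and 11501 ± 3884 FPKM (adjusted p = 0.00193), and INA, a neuronal filament, was listed at 0 outside the 5 μM group, where it was at 515 ± 178 FPKM (adjusted p = 0.00121, at most 7 steps). The VIM mean at 5 μM compares with 12559800 FPKM for KRT8 in the same cultures.

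Cornified envelope genes encode the protein shell of squamous cells. Of 12 tested 4 were called higher at 5 μM (33.3%, against 14.1% of all genes) and 0 lower (2.17% of all genes). IVL (involucrin) was at 617 ± 278 FPKM in the control, 6242 ± 1009 at 5 μM and 9028 ± 2888 at 10 μM, with adjusted p-values of 0.00182 and 0.00851 against control. The small proline-rich proteins SPRR1A, SPRR1B and SPRR2D were at 5567 ± 2746, 16206 ± 8844 and 762 ± 1320 FPKM in the control and at 20802 ± 6285, 129810 ± 33192 and 36114 ± 4466 FPKM at 5 μM. Of the 88 keratin-associated protein genes, which encode the matrix around hair keratins, 30 were tested and 1 was called higher (3.33%, against 14.1% of all genes), KRTAP3-1, at no more than 4.2 steps.

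Among 18 transcription factors linked to epithelial keratin programs 4 were called higher at 5 μM (22.2%, against 14.1% of all genes) and 2 lower (11.1%, against 2.17%). TP63, the regulator of stratified epithelium, was at 163 ± 283 FPKM in the control, 3218 ± 287 at 5 μM and 450 ± 213 at 10 μM (adjusted p = 0.0344 at 5 μM and 0.0297 for 10 μM against 5 μM). LEF1 was at 98.0 ± 170 and 1550 ± 164 FPKM at 0 and 5 μM (adjusted p = 0.0377). HOXC13, a regulator of hair keratin genes, had a log2 difference of 1.36 (SE 0.23, adjusted p = 0.00483), and the intestinal factor CDX1 one of 2.14 (SE 0.21, adjusted p = 0.000730). CDX2, the other intestinal homeobox factor, was at 57123 ± 5579, 34438 ± 3819 and 22185 ± 4839 FPKM, a log2 difference of -0.73 at 5 μM (SE 0.12, adjusted p = 0.00513) and -1.38 at 10 μM (SE 0.20, adjusted p = 0.00996), the latter called. KLF4 was at 208481 ± 20691 FPKM in the control and 223104 ± 20097 at 5 μM (log2 difference 0.10, adjusted p = 0.462). The 2 that fell at 5 μM, named after their values were seen, were the epithelial factor ELF3 (log2 difference -1.21, SE 0.06, adjusted p = 0.000141) and the hepatic and intestinal factor HNF4A (-1.15, SE 0.10, adjusted p = 0.000477).

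Marker lists of other tissues were also higher at 5 μM, where 14.1% of all genes were called higher. Of 6 squamous epithelium markers 5 were called (KRT5, KRT14, TP63, IVL and DSG3), of which KRT5 and KRT14 are keratins already described. The 4 squamous markers that are not keratins (TP63, IVL, DSG3 and DSC3) summed to 809 to 1924 FPKM in the control, 11447 to 17314 at 5 μM and 7977 to 14531 at 10 μM. The 10 μM sum was mostly IVL, with a mean of 9028 FPKM, while TP63, DSG3 and DSC3 were at 450, 1327 and 684. At 5 μM those 3 were at 3218, 2134 and 2127 FPKM. With KRT5, at 0 in the control and at 10 μM, and KRT14 the sums were 1075 to 2050, 14664 to 20096 and 9237 to 15265 FPKM. Of 6 mesenchyme markers 4 were called (VIM, COL1A1, COL1A2 and PDGFRB), and the 6 summed to 5634 to 9648, 43465 to 55385 and 21152 to 26111 FPKM, with COL1A2 at 0 at 10 μM. COL1A1 was the largest part of the mesenchyme sums, with means of 6567, 37114 and 21563 FPKM at 0, 5 and 10 μM. The part of the squamous and mesenchyme markers in the keratin differences was not tested. In these bulk cultures fewer cells of a kind and less RNA per cell cannot be told apart.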

How the data were processed

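RNA-Seq (paired-end) of 9 HT-29 cultures was analysed. After read filtering, the authors ran TopHat against hg19 and Cufflinks on the alignments, and the deposited tables hold the resulting FPKM value of each gene without read counts. The members, gene lists and tests were chosen with earlier results of these data known. Values of the 543 symbols on more than 1 entry were summed. A comparison took in 6 samples, those of both groups, with log2(FPKM + 1), genes whose largest value reached 10, and limma 3.58.1 in R 4.3.3 (lmFit, eBayes with a trend) over all genes, without a replicate block. Replicates came from separate cultures, as the study's methods state, and the labels call them biological replicates. Steps per gene were estimated from the unit of low values and the annotated length (GRCh37). Even numbers of steps were commoner than odd ones, so a step is not equated with 1 fragment, and no count model was used. Depth in reads is not known from the tables, and no counting interval is given.

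Named genes were the 5 simple keratins, each other keratin called in any comparison, the 5 other keratins with the highest mean, up to 4 called genes per further list with the largest 5 μM difference, and DSP, PLEC, VIM, CDX2, TP63 and KLF4. KRT15, KRT40, KRT79 and KRT83 were added after their values were seen. Tables were made with pandas 2.3.3 and numpy 2.4.6 and plots with matplotlib 3.10.9. The scripts were tested on simulated data. Alternatives were pseudocounts of 1000 and 10000, no filter, at least 10 steps, all 9 samples in one fit, a replicate block, median-of-ratios scaling, no fold limit, limma's treat, the largest entry of repeated symbols, and each replicate left out.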

Additional observations from a re-analysis of the deposited data

How the results depend on the processing

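A total of 16 alternatives were tried per comparison. The 5 μM calls of KRT7, KRT19, KRT23, KRT81 and KRT86 and the call of KRT7 at 10 μM against 5 μM held in all 16, and those of KRT8 and KRT18 at 5 μM were lost with no filter and with limma's treat. KRT12, KRT13, KRT14 and KRT17 lost their 5 μM calls with treat, KRT12 and KRT14 also with a pseudocount of 10000 FPKM, and KRT3, KRT5, KRT6A, KRT75 and KRT85 with 1000 and 10000. With a pseudocount of 10000 FPKM the keratins called higher at 5 μM were 6, and those lower at 10 μM than at 5 μM were 5. With no filter the counts were 1 lower at 5 μM, 7 lower at 10 μM against 5 μM, and 0 higher and 0 lower at 10 μM against control. With no fold limit 5 were lower at 5 μM and 2 higher at 10 μM against control. With treat the counts were 1 lower at 5 μM, 4 lower at 10 μM against 5 μM, and 0 and 0 at 10 μM against control. At least 10 steps, and also all 9 samples in one fit, gave 6 lower at 10 μM against control, and median-of-ratios scaling gave 2 higher. Leaving out single replicates gave 3 to 17 lower at 10 μM against 5 μM, and 0 to 1 higher and 0 to 6 lower at 10 μM against control. Without KRT8 and KRT18 the simple keratins held 91.6%, 79.2% and 84.5% of keratin FPKM at 0, 5 and 10 μM. Some differences that were not called changed sign. At 10 μM against 5 μM, KRT18 ranged from -0.0105 (without 10 μM replicate 2) to 0.42, KRT8 from -0.10 (the same replicate) to 0.34 and KRT10 from -0.72 to 0.0015 (without 10 μM replicate 1) over single replicates left out. At 10 μM against control KRT12 ranged from -0.34 (without 10 μM replicate 3; -0.19 without control replicate 1) to 0.46, and KRT17 from -0.32 to 0.19 (without 10 μM replicate 1), with 0.13 under median-of-ratios scaling. The cause was not tested.

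With a replicate block the keratins lower at 10 μM than at 5 μM were 5 and those lower at 10 μM than in the control 1. The labels share replicate numbers only: over 15278 genes the 9 same-number pairs correlated between -0.0743 and 0.0860 and the 18 other pairs between -0.156 and 0.1, and 0 of 9 samples correlated best with its own number in both other groups. At a few steps 1 step more or less changes a value by a large share, and limma was given no such counting error.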
